A study of Mus musculus with 8 samples.

Results

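NFIB/X-dKO, in which both Nfib and Nfix were deleted, was compared with NFIB-cKO, in which only Nfib was deleted, in hair follicle stem cells sorted from mouse back skin. The comparison asks what the loss of NFIX adds when NFIB is already gone. It used 4 of the 8 libraries, NFIB/X-dKO 33 and 36 against NFIB-cKO 81 and 85, over every gene, and 15434 of 46517 genes were abundant enough to be tested (TPM, a length-corrected transcript level whose library totals are all equal, had to reach 1 in at least 2 libraries). All mice were male and 70 days old. NFIB-cKO mice were Sox9-CreER;NFIBfl/fl;R26-YFPfl/fl, and NFIB/X-dKO mice carried NFIXfl/fl in addition. NFIX-cKO mice (32 and 88), used beside them, carried Sox9-CreER and R26-YFPfl/fl with NFIXfl/fl and NFIBfl/+, so 1 Nfib allele was floxed there too. WT mice (34 and 82) carried the floxed alleles and R26-YFPfl/fl but no Cre. The cells were DAPI-, Sca-1-, integrin α6+ and CD34+, and YFP+ in the 3 knockout groups only, so WT cells passed no YFP gate. Cre ran from Sox9, which the stem cells and other outer root sheath cells express, and YFP marks cells in which Cre has acted. Each library bore its own title number and was taken as a separate animal. The p-values measure the spread between libraries of a group.

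NFIB and NFIX belong to the nuclear factor I family of transcription factors, which bind as dimers to the palindrome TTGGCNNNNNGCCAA and can also bind 1 arm of it. Hair follicle stem cells sit in the bulge, a niche in the outer root sheath of the resting follicle. They rest for most of the hair cycle and regrow the follicle when activated. The NFI factors are known in these cells for keeping stem cell enhancers active, and NFIB for restraining signals to the pigment stem cells that share the niche.

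Nfix, the gene deleted in only 1 of the compared groups, read 154 and 147 TPM in NFIB-cKO and 125 and 148 TPM in NFIB/X-dKO. The groups overlapped, and the log2(TPM + 1) difference was -0.15 ± 0.13 (SE) with an adjusted p of 0.49 by limma. Nfib read 293 and 233 TPM in NFIB-cKO and 377 and 389 TPM in NFIB/X-dKO, a difference of 0.55 ± 0.18 (adjusted p = 0.27, limma). Gene-level values sum over all exons, and the deleted part of each gene is not given in the sources used here, so neither gene checks the labels. Esr1, to which reads from the receptor part of CreER can count, was nearly silent in WT (0.33 and 0.47 TPM), and the 6 libraries whose labels name Cre ranged from 12.6 to 32.4 TPM. Expected counts, known for 5 libraries, totalled 66854625 in NFIB-cKO 85 against 57173266 and 61247130 in the NFIB/X-dKO libraries. NFIB-cKO 81 came without counts, so its depth was unknown. Defining markers of the sort were present in all 4 libraries. Cd34 read from 811 to 1024 TPM, Itga6 from 162 to 218 TPM and Krt15 from 7507 to 13202 TPM. Ly6a, which encodes Sca-1 and was gated out, read 7.55 and 6.46 TPM in NFIB-cKO against 28.7 and 24.4 TPM in NFIB/X-dKO. Among other cell types, the 6 blood and immune markers summed to between 33.5 and 34.6 TPM in NFIB/X-dKO and between 11.8 and 14.5 TPM in NFIB-cKO, mostly Cd74. The 6 markers of differentiated epidermis summed to between 2820 and 2913 TPM against between 887 and 972 TPM. In bulk RNA, fewer cells of a type and less RNA per cell cannot be told apart.

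The title numbers fell into a 30s and an 80s series that matched the groups compared. Both NFIB/X-dKO libraries had numbers in the 30s and both NFIB-cKO libraries in the 80s, while WT and NFIX-cKO held 1 of each. The labels do not say what the number stands for, and within the 4 libraries compared, genotype and title-number series cannot be told apart. WT and NFIX-cKO give the difference between the series within 1 genotype. A gene was taken to follow the series where WT 34 minus WT 82 and NFIX-cKO 32 minus NFIX-cKO 88 both had the sign of the NFIB/X-dKO difference and averaged at least 0.5 of it. It was taken not to follow where neither reached 0.25 of it in the same direction. Genes that differed between the series the other way, even widely, were therefore also classed as not following. Gsto1, for example, differed by 1.40 between the groups and by -2.02 between WT 34 and WT 82. Of the 15434 genes tested, 9224 (59.8%) followed the series, 4235 were intermediate and 1975 (12.8%) did not follow. By direction, 7294 of the 9966 genes higher in NFIB/X-dKO followed it (73.2%) and 1930 of the 5448 lower ones (35.4%). Across genes, which are not independent replicates, the NFIB/X-dKO minus NFIB-cKO difference and the mean of both pair differences had a Pearson r of 0.67 and a Spearman rho of 0.71. No library enters both measures. Against NFIX-cKO minus WT, which likewise shares no library with it, the difference had an r of 0.08 and a rho of 0.11 across genes. The median difference of all genes tested was 0.15, and -0.03 after median-of-ratios scaling.

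**Figure D1:**
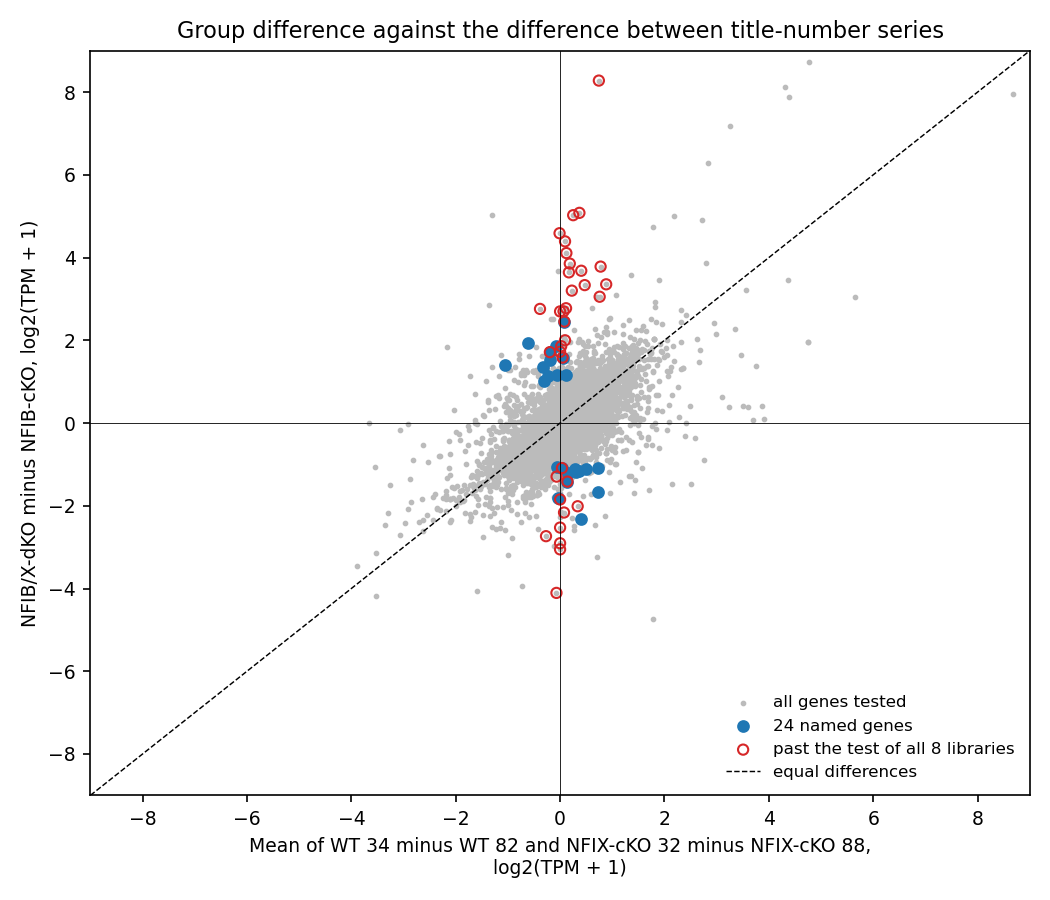
Each grey point is 1 of the 15434 genes tested. The y axis is the NFIB/X-dKO minus NFIB-cKO difference and the x axis the mean of WT 34 minus WT 82 and NFIX-cKO 32 minus NFIX-cKO 88, both in log2(TPM + 1), and the dashed line marks equal differences. The grey cloud rises from lower left to upper right (Pearson r 0.67), while the 35 genes past the test of all 8 libraries (red rings) and the 24 genes named by size (blue) lie between -1.06 (Gsto1) and 0.88 (Rps2-ps10) on the x axis.

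With all 8 libraries sharing 1 estimate of the spread, 35 genes (0.227% of those tested) passed the limma test at an adjusted p of 0.05, 24 higher (0.156%) and 11 lower (0.0713%) in NFIB/X-dKO. At an unadjusted p of 0.05 there were 1453 higher and 1201 lower. None of the 35 followed the title-number series, and 2 were intermediate. The pair differences that define following also enter the spread of this test, so a gene that follows the series has a larger error there and this count is no independent check. With that series as a covariate, 22 genes passed (0.143%), 15 higher (0.0972%) and 7 lower (0.0454%), 16 of them among the 35. The covariate subtracts from each difference the mean pair difference, which also defines following. A smaller difference with the covariate is therefore no separate evidence that a gene follows the series. The spread shared by the 8 libraries was set largely by WT and NFIX-cKO, whose 2 libraries came from different series. The median absolute difference between the libraries of a group was 0.35 in WT and 0.31 in NFIX-cKO, but 0.18 in NFIB-cKO and 0.10 in NFIB/X-dKO. Of the 35 genes, 25 had names of predicted genes, pseudogenes or unnamed cDNAs, and 5 had names of microRNA genes. By annotation 8 were microRNA genes. The other 5 were Mest, Piezo2 and Pde9a, which rose, and Tgm5 and RP24-378G4.3, which fell.

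Mest, an imprinted gene for a protein of the hydrolase fold family, rose from a level that was already above WT in NFIB-cKO. It read 2.17 and 2.52 TPM in WT, 5.31 and 6.45 TPM in NFIX-cKO, 18.1 and 21.6 TPM in NFIB-cKO, and 68.1 and 66.1 TPM in NFIB/X-dKO. The 4 groups did not overlap, and NFIB/X-dKO stood above all others. The difference from NFIB-cKO was 1.71 ± 0.17 (SE; adjusted p = 0.014, limma), and with the title-number series as a covariate 1.91 (adjusted p = 0.037, limma). Expected counts behind these values were 2192 in NFIB-cKO 85 and 5567 and 5819 in NFIB/X-dKO. Mest is on chromosome 6 from 30723547 to 30748465 (GRCm38, plus strand).

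Piezo2, a mechanically activated ion channel of touch receptors, showed the same order of groups except that NFIX-cKO came nearer to NFIB-cKO. Its values were 1.79 and 2.18 TPM in WT, 10.7 and 8.58 TPM in NFIX-cKO, 15.8 and 20.5 TPM in NFIB-cKO, and 54.1 and 57.7 TPM in NFIB/X-dKO. No group overlapped another. The difference between NFIB/X-dKO and NFIB-cKO was 1.58 ± 0.19 (SE; adjusted p = 0.036, limma), beside 1.83 ± 0.19 for NFIX-cKO minus WT (adjusted p = 0.029, limma). Merkel cells, the touch cells of skin, also express Piezo2. Their defining genes Atoh1 and Isl1 were at 0 in the 4 libraries compared and Krt20 stood at or below 0.08 TPM. Piezo2 lies on chromosome 18 from 63010213 to 63387183.

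Pde9a, a phosphodiesterase that breaks down cyclic GMP, had another pattern. It read 4.14 and 4.06 TPM in WT, 0.11 and 0.27 TPM in NFIB-cKO, 0.18 and 0.07 TPM in NFIX-cKO, and 4.81 and 6.27 TPM in NFIB/X-dKO. The gene was thus low in both knockouts of 1 factor and at or above the WT level in NFIB/X-dKO. The difference from NFIB-cKO was 2.45 ± 0.22 (SE; adjusted p = 0.0088, limma), with 6 expected counts in NFIB-cKO 85 against 290 and 361 in NFIB/X-dKO. NFIX-cKO minus WT went the other way, at -2.18 (adjusted p = 0.022, limma). Several processed pseudogenes shared this pattern, as described below. Pde9a is on chromosome 17 from 31386210 to 31476310.

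Tgm5, a transglutaminase that cross-links the cornified envelope, was the 1 protein-coding gene with an established name that fell. It read 626 and 580.1 TPM in WT, 512 and 455 TPM in NFIX-cKO, 330.4 and 256 TPM in NFIB-cKO, and 105 and 112 TPM in NFIB/X-dKO. Every NFIB/X-dKO value lay under every other. The difference from NFIB-cKO was -1.42 ± 0.15 (SE; adjusted p = 0.020, limma), and NFIX-cKO minus WT was -0.32 (adjusted p = 0.76, limma). RP24-378G4.3, a transcript on chromosome 14 from 54292443 to 54297456 known by its clone name, read 193 and 193 TPM in WT, 98.7 and 94.2 TPM in NFIX-cKO, 126 and 145 TPM in NFIB-cKO, and 59.7 and 66.4 TPM in NFIB/X-dKO. Its fall was -1.09 ± 0.12 from NFIB-cKO (adjusted p = 0.026, limma), close in size to the -0.99 ± 0.12 of NFIX-cKO minus WT (adjusted p = 0.054, limma).

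Leaving out any 1 of the 4 compared libraries left each group difference of these 5 genes with its sign but took every adjusted p above 0.05. In each such fit 1 group held 1 library, which is assumed to vary like the others. The adjusted p ran from 0.099 to 0.20 for Pde9a, from 0.14 to 0.28 for Mest, from 0.17 to 0.41 for Piezo2, from 0.074 to 0.28 for Tgm5 and from 0.12 to 0.39 for RP24-378G4.3 (limma). With the title-number series as a covariate, Mest passed, and the adjusted p was 0.061 for Pde9a, 0.20 for Piezo2, 0.080 for Tgm5 and 0.098 for RP24-378G4.3. With median-of-ratios scaling it was 0.099 for Mest, 0.097 for Piezo2 and 0.059 for RP24-378G4.3. Piezo2 also missed the threshold with a pseudocount of 0.1 (0.061), without a filter on low TPM (0.060), without WT 34 (0.053) and without WT 82 (0.054). On expected counts of 5 libraries, edgeR gave an adjusted p of 0.27 for Mest and 0.21 for the other 4 genes, while all 5 passed in DESeq2 (the highest adjusted p was 0.0060, for Mest). Under the rule that filled the falls to 3 by the smallest p, Col6a1, a collagen VI chain, differed by -1.06 ± 0.14 (adjusted p = 0.0502, just outside the threshold), Ccl27a by -1.06 ± 0.15 (adjusted p = 0.069) and Cyp2g1 by -2.32 ± 0.33 (adjusted p = 0.073), all by limma and none past the test.

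**Figure D2:**
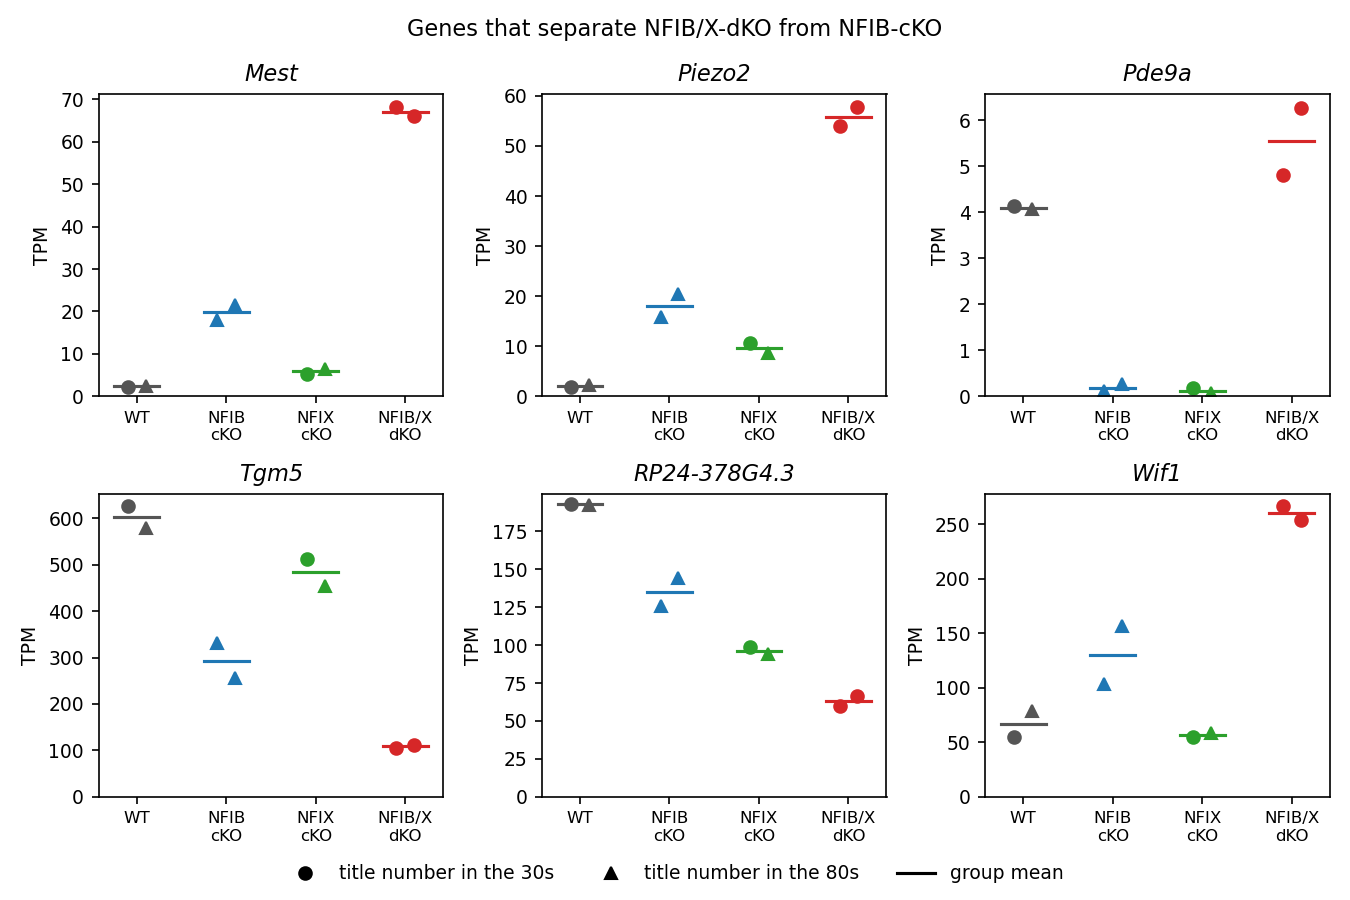
TPM of 6 genes by group, 1 panel a gene, with circles for title numbers in the 30s, triangles for those in the 80s and a line at each group mean. In the panels of Mest, Piezo2 and Wif1 both NFIB/X-dKO points stand above all others (66.1 and 68.1 TPM for Mest), in those of Tgm5 and RP24-378G4.3 they stand below all others, and in that of Pde9a they stand with WT.

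The stretch of 250 bases before the start of Tgm5 is shown with those of 3 further genes, because each stretch holds TTGGCA. The 3 further genes were lower in NFIB/X-dKO and are described below. Mest, the gene that rose, is shown for contrast. The arm searched for was TTGGCA, on both strands, so that TGCCAA is the same arm read from the other strand, and capitals mark the match. Sequences are from RefSeq (GRCm38.p6), 5′ to 3′ on the gene's strand. They span chr2:121085842-121086091 (minus strand) for Tgm5, chr2:27247304-27247553 (minus) for Sardh, chr2:33215711-33215960 (plus) for Angptl2, chr6:35326142-35326391 (minus) for Fam180a and chr6:30737800-30738049 (plus) for Mest.
Tgm5: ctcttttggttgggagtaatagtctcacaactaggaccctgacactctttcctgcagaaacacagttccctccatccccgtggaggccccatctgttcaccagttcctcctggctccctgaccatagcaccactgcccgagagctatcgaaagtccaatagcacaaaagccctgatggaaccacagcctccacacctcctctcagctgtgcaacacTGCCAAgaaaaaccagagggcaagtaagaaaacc
Sardh: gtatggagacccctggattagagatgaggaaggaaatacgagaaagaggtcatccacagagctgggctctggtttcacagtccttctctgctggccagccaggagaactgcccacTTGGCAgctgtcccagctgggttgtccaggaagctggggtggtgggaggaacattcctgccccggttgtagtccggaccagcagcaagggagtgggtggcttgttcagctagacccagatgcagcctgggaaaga
Angptl2: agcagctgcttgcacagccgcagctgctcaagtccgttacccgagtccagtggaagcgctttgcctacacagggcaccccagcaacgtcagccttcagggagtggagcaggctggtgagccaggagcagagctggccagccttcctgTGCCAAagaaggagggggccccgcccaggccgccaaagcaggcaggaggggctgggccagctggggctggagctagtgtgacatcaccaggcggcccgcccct
Fam180a: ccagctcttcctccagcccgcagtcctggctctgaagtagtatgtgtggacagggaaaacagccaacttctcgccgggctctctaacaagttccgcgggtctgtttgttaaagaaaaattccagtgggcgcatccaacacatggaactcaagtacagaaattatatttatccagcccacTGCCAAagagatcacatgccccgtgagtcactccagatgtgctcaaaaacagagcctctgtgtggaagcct
Mest: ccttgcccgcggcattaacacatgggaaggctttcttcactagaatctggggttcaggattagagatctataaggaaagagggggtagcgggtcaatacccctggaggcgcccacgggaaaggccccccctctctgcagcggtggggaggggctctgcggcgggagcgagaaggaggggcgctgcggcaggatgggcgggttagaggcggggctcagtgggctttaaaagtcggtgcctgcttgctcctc
The match lay 34 bases before the RefSeq start in Tgm5, 135 in Sardh, 103 in Angptl2 and 71 in Fam180a. The 3 Mest windows in the table held none. Of the 24 named genes (the 12 largest rises and 12 largest falls described below), 15 had a promoter entry. TTGGCA was found in 4 of 8 that were lower and 0 of 7 that were higher. It was present in 14.1% of all genes with a promoter entry and in 11.8% of those tested. The complete palindrome occurred in 0.044% of all genes. A match describes the letters in these windows and is not a measured binding site.

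Predicted genes and pseudogenes made up most of the 35 calls. Many were close copies of an abundant parent gene, present in some groups and near 0 in others. The cause of these patterns was not tested. Gm6311, a processed pseudogene of the ribosomal protein gene Rps2 on chromosome 13, read 640.4 and 443 TPM in WT and 645 and 618 TPM in NFIB/X-dKO, but at most 1.18 TPM in the other 4 libraries. Gm15487 (a copy of Atp6v0c, a proton pump subunit), Gm13443 (Glo1, glyoxalase), Gm9825 (Rnps1, a splicing factor) and Gm14292 (Wtap, of the RNA methylation complex) had the same pattern, present in WT and NFIB/X-dKO and near 0 in NFIB-cKO and NFIX-cKO, as Pde9a had. Another set was present in NFIX-cKO and NFIB/X-dKO and near 0 in WT and NFIB-cKO. Gm10093, a copy of the histone deacetylase gene Hdac1, read 19.7 and 16.1 TPM in NFIX-cKO and 21.0 and 20.3 TPM in NFIB/X-dKO, and at most 0.06 TPM in WT and NFIB-cKO. Gm7125 and Gm15195, copies of the chromatin protein gene Hmgn2, and Gm12901, a copy of Rpl11, did the same, and another Hmgn2 copy, Gm10182, read from 50.4 to 77.9 TPM in these groups and from 2.61 to 5.32 TPM in the others.

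Short stretches of a parent and its copy show how few bases tell their reads apart. The 60 bases are from the coding sequence of the parent transcript (GENCODE M21) at the place with most mismatches, 5′ to 3′, with mismatched bases in capitals. The Gm10093 stretch lies at chr17:78492004-78492063 and the Gm6311 stretch at chr13:75954156-75954215, both GRCm38, plus strand.
Hdac1: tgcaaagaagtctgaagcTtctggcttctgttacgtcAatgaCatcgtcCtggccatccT
Gm10093: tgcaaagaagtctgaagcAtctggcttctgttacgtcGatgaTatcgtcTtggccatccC
Rps2: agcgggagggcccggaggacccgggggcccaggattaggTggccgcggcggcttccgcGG
Gm6311: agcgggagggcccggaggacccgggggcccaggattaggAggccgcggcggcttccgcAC
Counted from 1 at the 5′ end of the stretch, with the parent's base first, the differences are T19A, A38G, C43T, C50T and T60C in Gm10093, and T40A, G59A and G60C in Gm6311. Over 1444 aligned positions Gm10093 was 99.4% identical to Hdac1, with 9 that differed. Over 879 aligned positions Gm6311 was 98.9% identical to Rps2, with 10. Gaps count as positions that differ, and Gm6311 has 878 bases, so its alignment held a gap. Reads of such pairs can be split between the copies by the authors' counting, so the calls of these copies are uncertain. The sum of a copy and its parent offsets a split between that pair in part. TPM is corrected for length, so where the lengths differ the sum still moves with the split. Other copies can also share the same reads. Gm6311 alone differed by 8.28 between NFIB/X-dKO and NFIB-cKO and the sum with Rps2 by 0.22. Adding 2 further Rps2 copies, Rps2-ps10 (17.5 and 29.9 TPM in NFIB-cKO, 256 and 231 TPM in NFIB/X-dKO) and Rps2-ps6 (1.24 and 0 TPM, then 62.2 and 36.8 TPM), gave a sum that differed by 0.34. Gm10093 alone differed by 4.39 and the sum with Hdac1 by -0.03. Gm15487 alone differed by 5.08 and the sum with Atp6v0c by -0.08. The sum of Gm13443 and Glo1 still differed by 1.15, because Glo1 itself differed by 0.90. These sums were given no test.

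**Figure D3:**
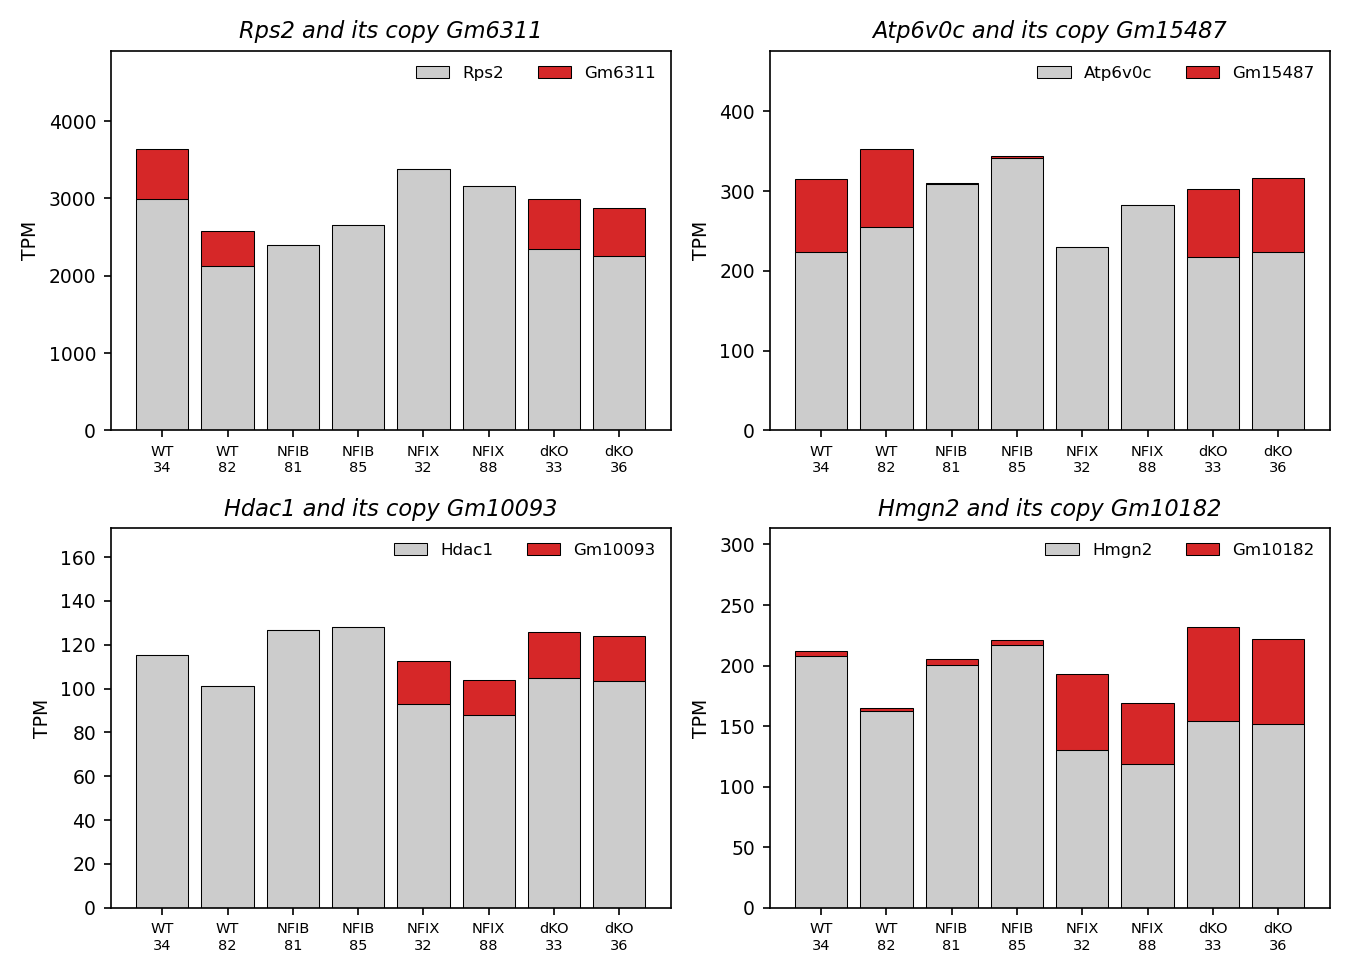
Stacked bars of TPM for a parent gene (grey) and its near-identical copy (red) in each of the 8 libraries (dKO stands for NFIB/X-dKO). The Gm6311 and Gm15487 parts appear in WT and NFIB/X-dKO only, and the Gm10093 part in NFIX-cKO and NFIB/X-dKO only (from 16.1 to 21.0 TPM), while the summed bars of Hdac1 and Gm10093 stay between 101 and 128 TPM.

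The Ccl27 locus on chromosome 4 holds several near-identical copies of the gene for the skin chemokine CCL27. Gm13306, one of these copies, fell from 213 and 148 TPM in NFIB-cKO to 43.0 and 43.7 TPM in NFIB/X-dKO, with 1020.2 and 753 TPM in WT (difference -2.01 ± 0.22, adjusted p = 0.020, limma). The sum of Gm13306, Ccl27a and Ccl27b is less open to how reads were split among them than a single copy is. Because TPM is corrected for length, the sum can still move with that split. It read 1536 and 1247 TPM in WT, 518 and 465 TPM in NFIX-cKO, 387 and 336 TPM in NFIB-cKO, and 126 and 118 TPM in NFIB/X-dKO, a difference of -1.56 from NFIB-cKO. The 4 groups stood apart in this order, and the 2 series differed by only 0.30 in WT and 0.15 in NFIX-cKO.

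A further set of calls was near 0 outside 1 group. Gm10718, Gm10719, Gm10721 and Gm11168, neighbours within chromosome 9 from 3003346 to 3025218, and Gm21738 on chromosome 14 were high in NFIB/X-dKO. Gm10719, for example, read 24.7 and 13.7 TPM there and from 0.51 to 0.94 TPM in the other 6 libraries. Gm21738 read 14.3 and 11.4 TPM there, but also 0.63 and 0.80 TPM in the 30s libraries of WT and NFIX-cKO and 0 in all 4 of the 80s. The neighbour Gm10717, not among the 35, had that order too, with 43.9 and 32.8 TPM in NFIB/X-dKO, 2.43 TPM in WT 34 against 0.23 TPM in WT 82, and 3.60 TPM in NFIX-cKO 32 against 0.09 TPM in NFIX-cKO 88. Gm17535, next to them, went the other way, with 5.86 and 3.72 TPM in NFIB-cKO and 2.74 and 1.62 TPM in NFIB/X-dKO. These neighbours were singled out after their values were seen. Of the genes with microRNA names, Mir7655, Mir7059 and Mir7072 were above 0 in NFIB-cKO only. They rested on 3, 3 and 2 expected counts in NFIB-cKO 85, so few reads decide them, and Mir7213, above 0 in NFIB/X-dKO only, rested on 2 and 1.

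When only the 4 compared libraries were fitted, 3086 of 14712 genes passed the limma test (21.0%), 2078 higher (14.1%) and 1008 lower (6.85%), and all 35 genes of the fit of 8 libraries were among them. The spread in this fit came from 2 residual degrees of freedom and the trend across genes. Both libraries of each group came from 1 title-number series, so this spread holds no difference between the series. Of the 3086, 2279 followed the title-number series, 606 were intermediate, and 201 did not follow. By direction, 1679 of the 2078 higher genes followed it (80.8%) and 600 of the 1008 lower ones (59.5%). The 201 were 88 higher (0.598% of genes tested) and 113 lower (0.768%). Of these 201, 134 (66.7%) had the same sign in NFIX-cKO minus WT, beside 52.3% of all genes tested and 52.7% of the 2279 that followed the series. Apart from the 5 genes above, the genes named from this fit did not pass the test of all 8 libraries. From the 201, the 12 largest rises and 12 largest falls were taken among genes with established names, a mean of at least 5 TPM in the higher group and no overlap between the groups. This choice was made after their values were seen.

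Among the 12 higher genes, Wif1, a secreted inhibitor of Wnt ligands, read 103 and 157 TPM in NFIB-cKO and 267 and 254 TPM in NFIB/X-dKO, with 54.5 and 78.3 TPM in WT and 54.8 and 58.6 TPM in NFIX-cKO. It was higher in NFIB/X-dKO than in every other library (difference 1.03 ± 0.21, adjusted p = 0.039 in the limma fit of 4 libraries). Sbspon, a secreted matrix protein, read 3.83 and 2.23 TPM in NFIB-cKO and 16.8 and 11.8 TPM in NFIB/X-dKO. Dlk2, an EGF-like membrane protein of the Delta family, read 11.6 and 14.3 TPM and then 30.7 and 38.9 TPM. Its other groups lay between 13.3 and 27.0 TPM. Gap43, a protein of neuronal growth cones, stood at 0.18 and 0.31 TPM in WT, 3.10 and 1.98 TPM in NFIB-cKO, and 10.2 and 13.6 TPM in NFIB/X-dKO (difference 1.87 ± 0.23, adjusted p = 0.021 in the limma fit of 4 libraries; 0.051 in that of 8). Synpo2, an actin-binding protein, read 9.91 and 12.2 TPM in NFIB-cKO and 31.7 and 35.6 TPM in NFIB/X-dKO. Dlg2, a synaptic scaffold, read 3.64 and 2.49 TPM and then 8.28 and 7.65 TPM. The enzymes and inhibitors were Chst9, a sulfotransferase (5.10 and 3.43 TPM, then 10.9 and 10.3 TPM), Serpinb6b, a protease inhibitor (2.61 and 3.58 TPM, then 6.84 and 9.09 TPM), and Gsto1, a glutathione transferase. Gsto1 read 32.98 and 46.6 TPM in NFIB-cKO and 106 and 105 TPM in NFIB/X-dKO, but its WT libraries differed widely, at 33.5 and 139 TPM. Mest, Piezo2 and Pde9a complete the 12.

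The 12 lower genes had mixed functions. Col8a2, a collagen VIII chain, read 130 and 115 TPM in WT, 77.9 and 58.8 TPM in NFIX-cKO, 54.1 and 44.5 TPM in NFIB-cKO, and 23.04 and 21.3 TPM in NFIB/X-dKO. Its groups stood apart in that order (difference -1.11 ± 0.12, adjusted p = 0.019 in the limma fit of 4 libraries). Angptl2, a secreted angiopoietin-like protein, read 65.9 and 73.3 TPM in NFIB-cKO and 33.6 and 26.8 TPM in NFIB/X-dKO, where it overlapped NFIX-cKO at 52.98 and 31.8 TPM. Among the enzymes, Sardh, which oxidises sarcosine in mitochondria, read 78.5 and 48.7 TPM in WT, 9.93 and 4.68 TPM in NFIB-cKO, and 1.89 and 1.11 TPM in NFIB/X-dKO. Fam180a read 7.30 and 8.41 TPM in NFIB-cKO and 3.51 and 2.69 TPM in NFIB/X-dKO. Atp6v1b1, a subunit of the vacuolar proton pump, read 5.77 and 13.0 TPM in NFIB-cKO, 1.37 and 2.23 TPM in NFIB/X-dKO, and 20.4 and 20.2 TPM in NFIX-cKO, so its lowest and highest groups both lacked NFIX. Psd, an exchange factor for a small GTPase, read 5.60 and 5.03 TPM and then 1.52 and 1.98 TPM. Tle6, a corepressor of the Groucho family, read 7.12 and 5.59 TPM and then 1.95 and 2.69 TPM, in the range of WT at 2.69 and 1.72 TPM. The long RNAs were Pvt1 (5.26 and 5.33 TPM, then 2.12 and 1.92 TPM) and the imprinted H19 (7.84 and 7.43 TPM, then 2.74 and 3.38 TPM). Cyp2g1, a cytochrome P450, Tgm5 and RP24-378G4.3 complete the 12.

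NFIX-cKO minus WT had the same sign for 10 of the 12 higher genes and 8 of the 12 lower ones. The share was 66.7% among the 201 genes from which the 24 were drawn and 52.3% among all genes tested. WT had no Cre and no YFP gate, and NFIX-cKO had Cre with a floxed Nfib allele, so this difference is not NFIX loss alone. The 24 were chosen for a large difference between NFIB/X-dKO and NFIB-cKO, so the sizes are set side by side without a comparison. Sbspon differed by 1.94 between NFIB/X-dKO and NFIB-cKO and by 0.79 between NFIX-cKO and WT. Gap43 differed by 1.87 and 0.40, and Wif1 by 1.03 and -0.20. For Sardh the differences were -1.67 ± 0.42 and -1.66 ± 0.42 (SE, both from the fit of 8 libraries). They were -1.20 and -1.02 for Psd, -1.19 and -1.04 for Angptl2, and -1.11 and -0.84 for Col8a2. H19 differed by -1.09 against 1.73, and Cyp2g1 by -2.32 against 1.93. In NFIX-cKO against WT itself 23 genes (0.149%) passed the limma test, 13 higher (0.0842%) and 10 lower (0.0648%).

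**Figure D4:**
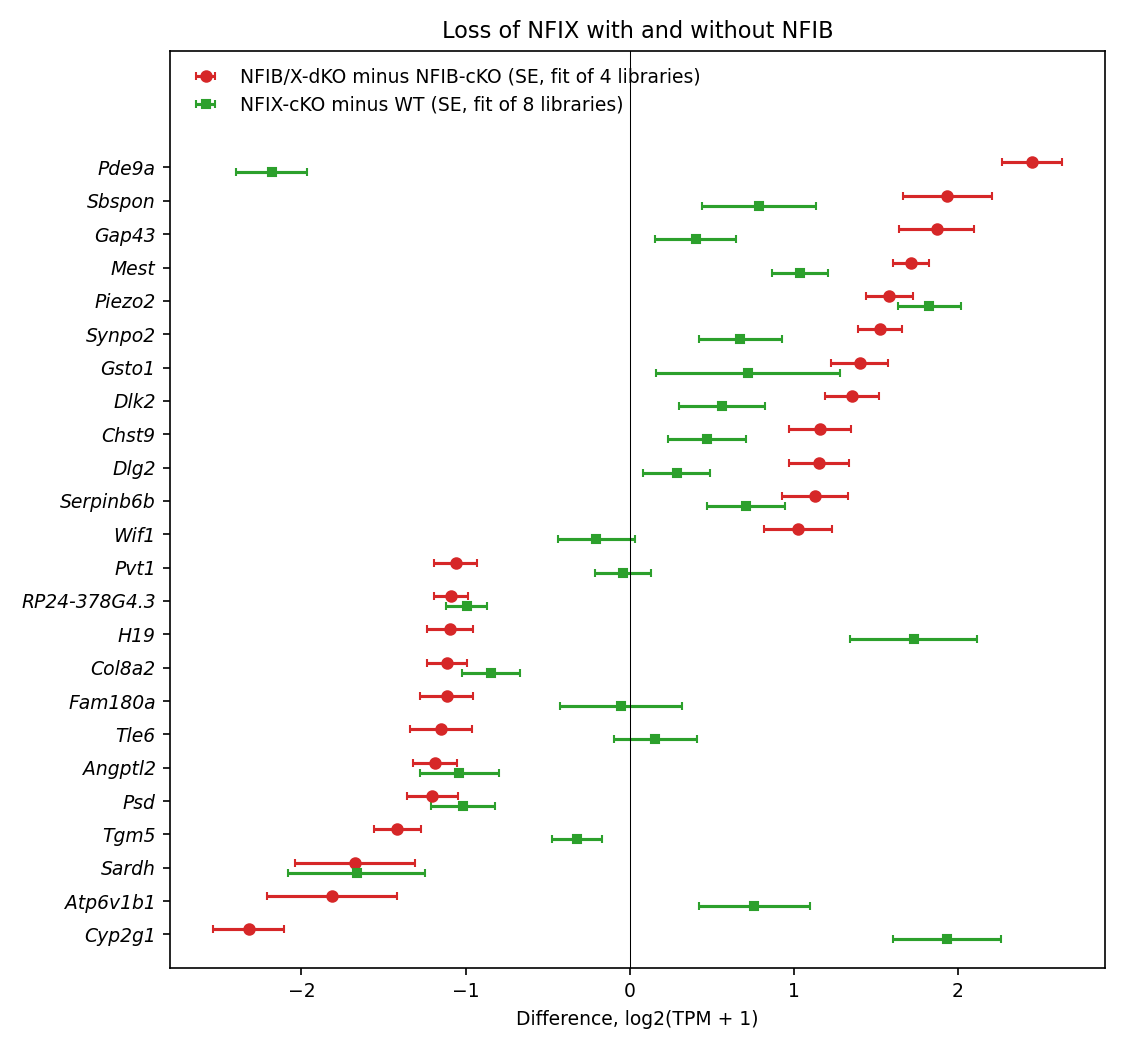
Differences in log2(TPM + 1) for the 24 genes, with NFIB/X-dKO minus NFIB-cKO in red and NFIX-cKO minus WT in green, and bars of 1 SE. The SE is from the fit of 4 libraries for red and from that of 8 for green, so bar lengths are not comparable between colours. Green squares lie on the same side of 0 as the red points for 10 of the 12 higher and 8 of the 12 lower genes. Both differences had 1 sign in 66.7% of the 201 genes from which the 24 were drawn, and in 52.3% of all genes tested. Green squares lie on the opposite side for Pde9a, Cyp2g1, Atp6v1b1 and H19 by the widest margins.

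Gene lists were read by the number of members called in the fit of 4 libraries, beside 14.1% higher and 6.85% lower for all genes tested, and by their median in the fit of all 8, beside 0.15 for all genes. In the fit of 8 libraries only Mest, Piezo2 and Tgm5 were called among the members of the lists described. Of 30 genes of bulge stem cell identity, 1 was higher and 11 lower in the fit of 4 libraries, and the median difference was -0.52. With the title-number series as a covariate the median was -0.27, beside -0.07 for all genes. The 4 lower members that did not follow the series were Krt24, Dkk3, Ptn and Hopx. Krt24, a keratin of the bulge, read 460.2 and 353 TPM in WT, 248 and 261 TPM in NFIX-cKO, 46.0 and 71.1 TPM in NFIB-cKO, and 26.7 and 28.6 TPM in NFIB/X-dKO. Ptn, the secreted growth factor pleiotrophin, read 1190 and 1042 TPM in NFIB-cKO and 764 and 700.0 TPM in NFIB/X-dKO. Dkk3, a secreted protein of the Dickkopf family, read 274 and 294 TPM and then 185 and 200 TPM, and Hopx, a homeodomain protein without DNA binding, 195 and 219 TPM and then 158 and 145 TPM. Lhx2, a transcription factor of stem cell identity, read 182 and 189 TPM in NFIB-cKO and 104 and 122 TPM in NFIB/X-dKO (difference -0.72 ± 0.10, adjusted p = 0.024 in the limma fit of 4 libraries), and was intermediate for the series. Foxc1, a factor of stem cell quiescence, read 21.5 and 23.7 TPM and then 15.7 and 13.3 TPM, also intermediate. Sox9, whose promoter drives Cre, read 182 and 199 TPM and then 79.0 and 135 TPM, with 75.7 and 129 TPM in NFIX-cKO. Cd34, which the sort required, read 1024 and 811 TPM and then 958 and 861 TPM, with overlap.

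Axon guidance and neural genes gave 7 higher and 2 lower of 27 in the fit of 4 libraries, with a median of 0.28 (0.08 with the series as a covariate and 0.083 with median-of-ratios scaling). The 4 higher members that did not follow the series were Piezo2, Gap43, Unc5b and Ncam1. Unc5b, a netrin receptor, read 14.5 and 13.7 TPM in NFIB-cKO and 22.2 and 23.5 TPM in NFIB/X-dKO, while WT and NFIX-cKO lay between 11.1 and 12.7 TPM. Ncam1, a neural adhesion molecule, read 0.51 and 0.92 TPM and then 2.61 and 2.77 TPM. Ntf3, a neurotrophin, went the other way, with 9.07 and 13.3 TPM in NFIB-cKO and 4.99 and 4.82 TPM in NFIB/X-dKO. Sema3e, a secreted guidance cue, read 114 and 164 TPM and then 291 and 275 TPM, and was intermediate for the series.

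Wnt signalling gave 11 higher and 2 lower of 29 genes in the fit of 4 libraries, with a median of 0.43 (0.09 with the covariate and 0.25 with median-of-ratios scaling). Wnt3, a ligand, read 2.18 and 1.53 TPM in NFIB-cKO and 8.32 and 11.2 TPM in NFIB/X-dKO, but 6.60 and 2.05 TPM in NFIX-cKO 32 and 88. The receptor Fzd1 read 46.8 and 55.9 TPM and then 92.7 and 82.1 TPM, and the inhibitor Apcdd1 14.0 and 17.4 TPM and then 35.8 and 38.5 TPM. Besides Wif1, the only member past that test and not following the series was Dkk3, which was lower. Axin2, a target of the pathway, read 61.5 and 32.4 TPM and then 83.3 and 78.4 TPM, with an adjusted p of 0.11 in the limma fit of 4 libraries. Of the targets of YAP and TEAD, 11 were higher and 1 lower of 23, with a median of 0.36 (0.12 with the covariate and 0.16 with median-of-ratios scaling). Of the 11, 8 followed the series, beside 80.8% of all higher genes called in the fit of 4 libraries. The lower member was Ctgf, a matricellular protein and widely used target, which read 1423 and 1153 TPM in NFIB-cKO and 472 and 438 TPM in NFIB/X-dKO and followed the series. The summed TPM of the list went from 4167 and 3629 in NFIB-cKO to 2663 and 2875 in NFIB/X-dKO, against the sign of the median. Tead4 read 7.61 and 7.82 TPM and then 15.4 and 17.1 TPM, with 16.5 and 13.3 TPM in WT.

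Epidermal differentiation genes had the highest median of the lists described (0.80), with 16 higher and 2 lower of 32 in the fit of 4 libraries. Of those 16, 15 followed the title-number series, beside 80.8% of all higher genes called in that fit. With the covariate the median was 0.19. Krt10, a keratin of suprabasal epidermis, read 352 and 296 TPM in NFIB-cKO and 1188 and 1102 TPM in NFIB/X-dKO, but also 1010.0 and 557 TPM in WT 34 and 82, and 1596 and 396 TPM in NFIX-cKO 32 and 88. Within every group that held both series, the 30s library was the higher one. Krt1, Dsg1a, Calm4 and Flg2 shared this order. Tgm5 was the only member of the list called in the fit of all 8 libraries. Ly6a behaved like them, at 37.0 TPM in NFIX-cKO 32 and 10.9 TPM in NFIX-cKO 88, as did Cd74, with 41.4 and 12.8 TPM, though not in WT. The part of these cells in other results was not tested.

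Cell cycle genes had the lowest median (-1.02, and -0.66 with the covariate), yet in the fit of 4 libraries 0 of 40 were lower and 4 were higher. The members at the low end were those of mitosis. Cdc20, an activator of the anaphase complex, read 18.2 and 50.2 TPM in NFIB-cKO 81 and 85 against 6.06 and 8.73 TPM in NFIB/X-dKO, and Ccnb1, cyclin B1, 13.3 and 36.4 TPM against 4.95 and 7.17 TPM. WT lay between 3.78 and 8.08 TPM for both genes. The groups did not overlap, but NFIB-cKO 85 stood well above NFIB-cKO 81, and without NFIB-cKO 85 the median of the list was -0.54. The 4 higher members were the replication genes Mcm2, Mcm3, Mcm4 and Gins2. Gins2 read 21.7 and 25.4 TPM in NFIB-cKO and 34.8 and 35.3 TPM in NFIB/X-dKO, but its difference had the opposite sign in edgeR (-0.24) and DESeq2 (-0.25) on expected counts, neither past the test.

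Interferon and antigen presentation genes gave 4 higher and 10 lower of 28, with a median of -0.50 (-0.32 with the covariate). Of the 10 lower, 5 followed the series, beside 59.5% of all lower genes called in the fit of 4 libraries, and 1 was classed as not following it. The lower ones included the class I genes H2-K1 (974 and 831 TPM in NFIB-cKO, 448 and 370 TPM in NFIB/X-dKO) and H2-D1 (739 and 657 TPM, then 436 and 370.1 TPM), both intermediate for the series. Tapbp, which loads class I molecules, did not follow the series and read 83.7 and 71.9 TPM and then 54.4 and 58.6 TPM. Ifit2, an interferon-induced gene, was higher, at 1.96 and 1.90 TPM and then 3.73 and 4.26 TPM. Of sebaceous gland and lipid genes, 5 were higher and 6 lower of 27, with a median of -0.04 (0.033 with covariate and scaling). The series was followed by 4 of the 5 higher and 2 of the 6 lower, beside 80.8% and 59.5% of all such calls. Fa2h, a fatty acid hydroxylase, read 7.40 and 11.4 TPM in NFIB-cKO and 0.39 and 0.59 TPM in NFIB/X-dKO, with 32.1 and 63.3 TPM in WT (difference -2.78 ± 0.41, adjusted p = 0.080 in the limma fit of 8 libraries). Elovl3, a fatty acid elongase, read 2.35 and 4.11 TPM and then 0.21 and 0.27 TPM, and Cidea, a lipid droplet protein, 4.12 and 4.35 TPM and then 0.87 and 0.38 TPM. All 3 were intermediate for the series, with the 80s library the higher one in WT. Mgst1, a microsomal glutathione transferase of lipid-rich cells, was higher and did not follow it (246 and 218 TPM, then 314 and 324 TPM).

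Cholesterol synthesis genes gave 7 higher and 0 lower of 23, with a median of 0.36 (0.23 with the covariate). The median was 0.17 with median-of-ratios scaling and 0.19 without NFIB-cKO 81, and its sign turned in edgeR (-0.054) and DESeq2 (-0.065) on expected counts. Hsd17b7 read 5.40 and 4.72 TPM in NFIB-cKO and 11.2 and 11.3 TPM in NFIB/X-dKO, near WT at 13.0 and 11.1 TPM. Of basement membrane, integrin and matrix genes, 8 were higher and 3 lower of 38, with a median of 0.03 that turned to -0.19 with median-of-ratios scaling. Itga8, an integrin chain that binds nephronectin, stood at 0.17 and 0.29 TPM in WT, 1.46 and 1.57 TPM in NFIX-cKO, 4.13 and 3.16 TPM in NFIB-cKO, and 7.03 and 7.11 TPM in NFIB/X-dKO, the order of groups seen for Mest, and did not follow the series. Of imprinted genes, 3 were higher and 1 lower of 20, with a median of -0.03 that turned to 0.082 without NFIB-cKO 81. Mest and H19 were the 2 of these 4 that did not follow the series.

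**Figure D5:**
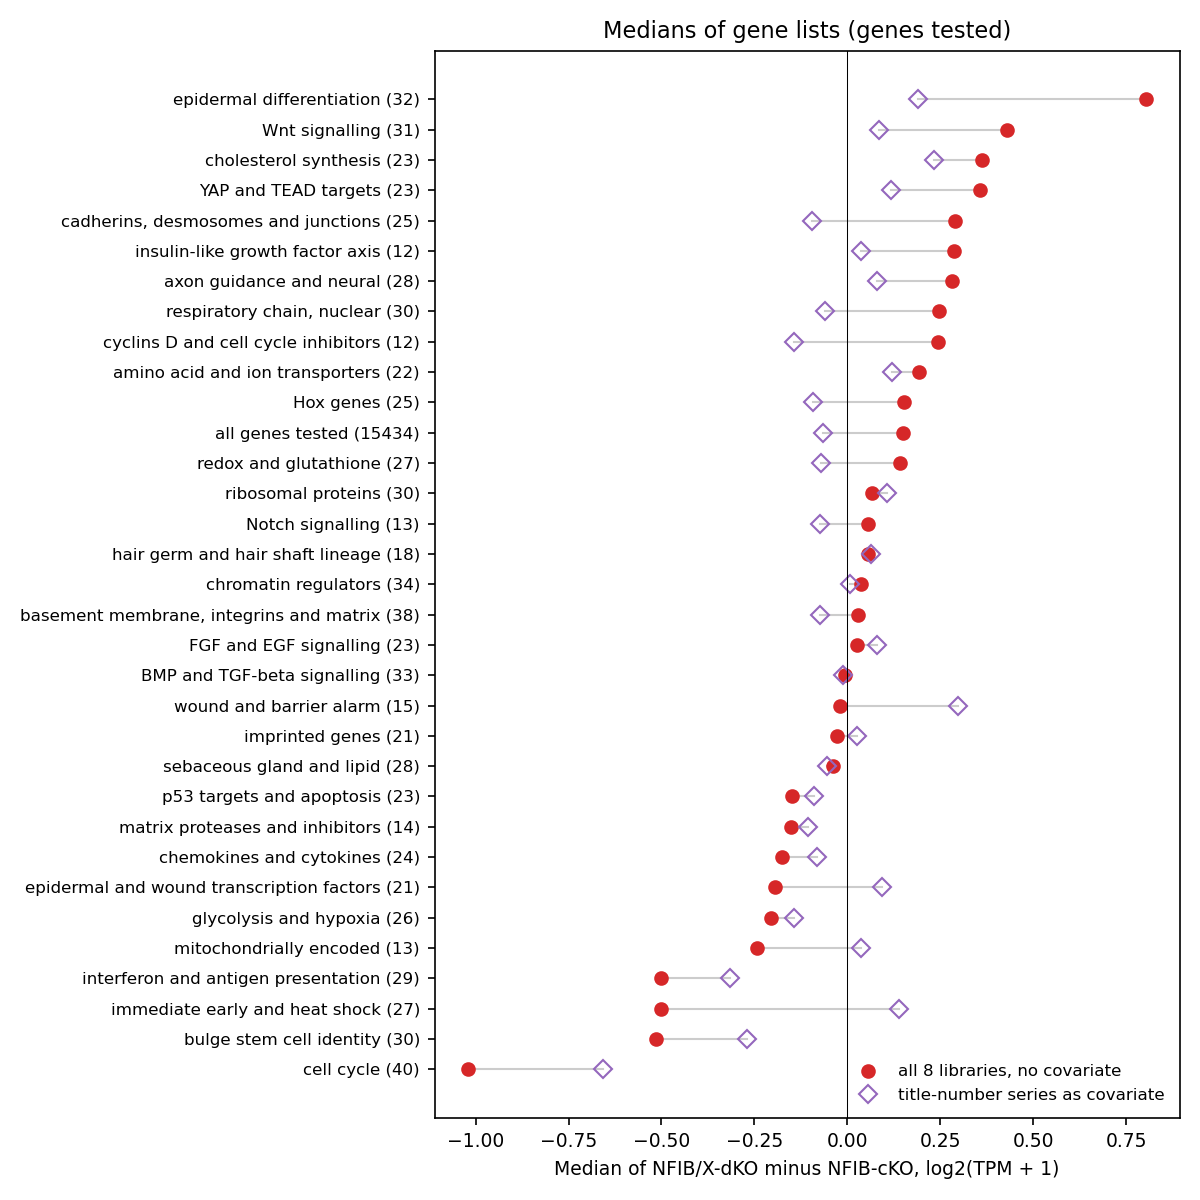
Median NFIB/X-dKO minus NFIB-cKO difference, in log2(TPM + 1), of each gene list with at least 12 genes tested (their number in brackets), without a covariate (filled red) and with the title-number series as a covariate (open purple). Epidermal differentiation moves from 0.80 to 0.19 and immediate early and heat shock genes from -0.50 to 0.14, while bulge stem cell identity (-0.52 to -0.27) and cell cycle (-1.02 to -0.66) keep their sign.

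Genes that followed the series were many and often large. Among them were clock genes, a list chosen after their values were seen. Per3, a repressor of the circadian clock, read 4.70 and 3.62 TPM in NFIB-cKO and 28.2 and 25.5 TPM in NFIB/X-dKO, but also 30.1 TPM in WT 34 against 4.96 TPM in WT 82, and 21.1 TPM in NFIX-cKO 32 against 3.65 TPM in NFIX-cKO 88. All 4 libraries of the 30s were thus high and all 4 of the 80s low, whatever the genotype. Per2, and the clock output genes Dbp and Tef, had this order, and Arntl, the activator of the clock, had the reverse (from 3.43 to 5.95 TPM in the 30s and from 18.7 to 27.5 TPM in the 80s). Of 19 clock genes, 15 followed the series (59.8% of all genes), and their median went from 0.46 to 0.12 with the covariate. The difference of Per3 was 2.44 ± 0.15 in the limma fit of 4 libraries (adjusted p = 0.010) and 0.12 with the covariate (adjusted p = 0.96, limma). For genes that follow the series, such a fall with the covariate is built into the definition of following. Others that followed the series were Fkbp5, a glucocorticoid target (4.16 and 26.3 TPM in NFIB-cKO, 142 and 120 TPM in NFIB/X-dKO), the chemokine gene Ccl2 (24.8 and 29.1 TPM, then 4.53 and 4.08 TPM) and mt-Co2, a mitochondrial gene (4434 and 8464 TPM, then 205 and 560 TPM). Immediate early and heat shock genes gave 8 lower members of 27 in the fit of 4 libraries. All 8 followed the series, beside 59.5% of all lower genes called in that fit. Myc read 234 and 319 TPM in NFIB-cKO and 57.6 and 77.7 TPM in NFIB/X-dKO, with 116 TPM in WT 34 and 379 TPM in WT 82.

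A further limma test took the NFIB/X-dKO minus NFIB-cKO difference less the NFIX-cKO minus WT difference. WT had no Cre and no YFP gate, and NFIX-cKO had Cre with a floxed Nfib allele, so this is not a contrast of NFIX loss alone. The test was passed by 18 genes (0.117%), 10 higher (0.0648%) and 8 lower (0.0518%). Among genes with established names these were Pde9a (4.63 ± 0.31, adjusted p = 0.0032), Cyp2g1 (-4.26, adjusted p = 0.039), Hs3st6 (-1.89, adjusted p = 0.039) and Esr1 (-4.87, adjusted p = 0.015). The Esr1 value compares Cre-carrying groups in 1 difference and a group without Cre in the other. Hs3st6, a heparan sulfate sulfotransferase, read 16.9 and 18.4 TPM in WT, 54.3 and 44.9 TPM in NFIB-cKO, 44.6 and 40.6 TPM in NFIX-cKO, and 30.5 and 31.3 TPM in NFIB/X-dKO. It was highest in NFIB-cKO and NFIX-cKO and intermediate in NFIB/X-dKO.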

How the data were processed

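RNA sequencing of 8 libraries was used, 2 in each of 4 groups taken from the titles. The authors deposited TPM for all 8 libraries in 1 table (46517 genes and 92 spike-in sequences), and gene tables with expected counts for 5 of them. The submitters' processing notes name RSEM 1.2.30, Bowtie2 2.2.9 and the build mm10 (GRCm38). The annotation release and read filters are not given in the sources used here. TPM keeps no depth, so no counting interval was computed.

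Differences in log2(TPM + 1) were tested in R 4.3.3 with limma 3.58.1 and a variance trend, all 8 libraries in 1 fit (4 residual and 3.10 prior degrees of freedom) and Benjamini-Hochberg adjustment at 0.05 over genes that reached 1 TPM in 2 or more libraries. Differences on this scale understate the change of low genes. Alternatives were another pseudocount (0.1), other filters (none, or TPM of at least 5), median-of-ratios scaling, the 4 compared libraries alone, the title-number series as a covariate, each library left out, and edgeR 4.0.16 and DESeq2 1.42.0 on rounded expected counts of 5 libraries, where NFIB-cKO 85 stood alone in its group. On simulated data for this comparison (15434 genes), limma recovered 37.3% of 2-fold, 85.1% of 4-fold and 92.4% of 8-fold changes, with 8 false calls. Changes were seeded in the more abundant genes only, and the simulation held no difference between title-number series. These rates therefore do not carry over to the real libraries, where series and genotype coincide.

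Genes were named by a rule that skipped predicted genes and pseudogenes: past the test, at least 5 TPM in the higher group, no overlap between groups, up to 12 in each direction not following the series, up to 3 by the smallest p where too few passed, and up to 4 members of a list by the smallest p. The same rule on the fit of 4 libraries, and its use for genes that follow the series, were added after the values were seen. The members and lists were chosen with earlier results of these data known. Where a symbol had several identifiers, lists used the most abundant. Coordinates and gene types came from GENCODE M21 (15361 tested genes had an entry), parents of copies from a BLAST+ 2.17.0 search of its transcripts, and promoters from RefSeq.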

Additional observations from a re-analysis of the deposited data

Results flagged for a closer look

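In 18 genes the difference between NFIB/X-dKO and NFIB-cKO was not the same as that between NFIX-cKO and WT, by the limma test of the difference itself. The values are differences of log2(TPM + 1) differences. Most were pseudogenes or predicted genes, whose counts are uncertain where a near-identical parent exists. They were 16.86 for Gm6311, 11.25 for Gm15487, 9.87 for Rps2-ps6, 9.15 for Gm13443, 8.23 for Gm9825, 7.12 for Gm14292, 6.05 for Rps2-ps10, 3.60 for Gm10719, 2.95 for Gm18367, -2.57 for Gm10157 and -4.07 for Gm25731. Gm6311, Gm15487, Gm13443, Gm9825, Gm14292 and Rps2-ps10 were higher in NFIB/X-dKO than in NFIB-cKO and lower in NFIX-cKO than in WT. Rps2-ps6 (5.03 and -4.84) and Gm18367 (1.34 and -1.61) had the same signs. These last genes were not past the test of NFIB/X-dKO against NFIB-cKO in the fit of 8 libraries.

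Those with microRNA names were above 0 in NFIB-cKO only, at -2.53 for Mir7072, -2.91 for Mir7059 and -3.05 for Mir7655. Of genes with established names, Pde9a stood at 4.63, Hs3st6 at -1.89, Cyp2g1 at -4.26 and Esr1 at -4.87. Cyp2g1 read 6.19 and 2.78 TPM in WT, 10.1 and 13.4 TPM in NFIB-cKO, 17.9 and 19.9 TPM in NFIX-cKO, and 1.19 and 1.92 TPM in NFIB/X-dKO. It was thus highest in NFIX-cKO and lowest in NFIB/X-dKO. The value of Esr1 was not told apart from reads of the CreER transgene, which WT lacks.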

How the results depend on the processing

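The count of 24 genes higher and 11 lower in NFIB/X-dKO depended on the processing. Without a filter on low TPM 57 were higher, and with a filter at 5 TPM 13 were higher and 4 lower. A pseudocount of 0.1 left 7 lower. The 4 libraries alone gave 2078 and 1008, the series covariate 15 and 7, and covariate with scaling 13 and 6. On expected counts edgeR called 1 higher and 0 lower (8 and 2 without a filter) and DESeq2 273 and 627. Leaving out 1 library gave from 8 to 53 higher and from 0 to 22 lower. The 18 genes of the non-additive test became 9 with a pseudocount of 0.1, 61 without a filter, 10 with the filter at 5 TPM, 11 with covariate and scaling, and from 6 to 16 without 1 library. NFIX-cKO against WT, with 23 genes, gave 44 with the covariate, 40 with covariate and scaling, and from 13 to 18 without 1 library. The cause was not tested.

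Of 86 named genes, these turned their sign. With the series as a covariate Rps12l1 went to -0.71, Arhgap33os to 0.44, RP23-148L8.3 to 0.31 and Nfic to -0.22, and with covariate and scaling these were -0.75, 0.56, 0.39 and -0.15, and Myc 0.061. Gins2 was -0.24 in edgeR (-0.24 without a filter) and -0.25 in DESeq2, and Nfic -8.87e-05 in DESeq2. Of the lists, the basement membrane median was -0.19 with scaling, -0.073 with the covariate, from -0.11 (without NFIB-cKO 85) to 0.058 (without NFIB/X-dKO 33) with 1 library left out, -0.14 in edgeR (-0.15 without a filter) and -0.15 in DESeq2. Cholesterol synthesis was -0.054 in edgeR, -0.059 without a filter and -0.065 in DESeq2. The imprinted median was also above 0 with the filter at 5 TPM (0.052) and with covariate and scaling (0.038). In edgeR the medians were 0.14 for Wnt signalling, 0.14 for YAP and TEAD targets, -2.10 for cell cycle and -0.25 for sebaceous gland and lipid. Immediate early and heat shock was 0.14 with the covariate and 0.21 with covariate and scaling. No paired analysis was possible because no title number is shared between groups.

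With 2 libraries a group, a missed call does not show that a gene did not differ.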

Other observations

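Gm10800 and Gm10801, predicted genes on chromosome 2 singled out after their values were seen, were higher in NFIB/X-dKO than in any other library but also differed between the title-number series. Gm10800 read 701 and 455 TPM in NFIB/X-dKO and 1.66 and 0.55 TPM in NFIB-cKO, with 21.6 TPM in WT 34 against 0.35 TPM in WT 82 and 38.0 TPM in NFIX-cKO 32 against 0.67 TPM in NFIX-cKO 88. Gm10801 read 135 and 78.7 TPM in NFIB/X-dKO and 0.53 and 0.17 TPM in NFIB-cKO, with 5.37 against 0.08 TPM in WT and 8.44 against 0.08 TPM in NFIX-cKO. In each of these genes the libraries ranked NFIB/X-dKO first, then the 30s libraries of WT and NFIX-cKO, then the 4 libraries of the 80s.

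The E-box CACGTG, searched on both strands in the 250 bases before the RefSeq start, was present in 5 of 16 clock genes with a promoter entry (31.3%), beside 6.86% of all genes and 9.89% of tested genes. The single NFI arm TTGGCA was present in 20 of 105 genes that were called in the fit of 4 libraries and did not follow the series (19.05%), beside 14.1% of all genes and 11.8% of tested genes. Both are descriptions of sequence and were given no test.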
